A study of Mus musculus with 8 samples.

Results

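RNA polymerase III subunits were compared between the hippocampi of BTBR and B6 mice with every probe that the array carries for Polr3a, Polr3b, Polr3c, Polr3d, Polr3e, Polr3f, Polr3g, Polr3gl and Polr3k. Probes were taken by the gene name printed in the scanner output, which gave 22 of 41174 non-control probes for 9 of the 27373 names on the array. A probe was tested when it was well above background on at least 75% of the arrays of 1 strain, and 19 of the 22 passed, of 27982 tested probes in all. The set was selected on the fall of the Polr3e signal in BTBR against B6 on these same arrays, and the other members were added by name. The question was whether that fall is alone in its complex. The values of Polr3e are therefore given as a description, with no test.

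The study profiled the whole hippocampus of 4 BTBR and 4 B6 mice, 1 mouse per array, on Agilent arrays hybridized with Cy3-labeled RNA. BTBR is the inbred strain BTBR T+ Itpr3tf/J, used as a mouse model of autism spectrum disorder, and B6 is the inbred strain C57BL/6J, labeled wild type. All mice were males of 5 months without drug treatment, bred in one vivarium from purchased stock. The strains are separate inbred lines and not littermates, so no single allele distinguishes the groups. The labels list C57BL/6J as background of the BTBR samples too, while their title, source and genotype say BTBR.

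RNA polymerase III makes short untranslated RNAs, among them the transfer RNAs, 5S ribosomal RNA, U6 and 7SK. Polr3a and Polr3b form its catalytic center. Polr3d and Polr3e form a dimer related to the factor TFIIF of RNA polymerase II, and Polr3c, Polr3f and Polr3g or Polr3gl form a trimer related to TFIIE that takes part in starting transcription. Polr3g and Polr3gl are paralogs that occupy the same place in alternative forms of the enzyme, and Polr3k helps it cleave RNA and terminate.

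Some bases of the probes for Polr3e and Polr3f are printed here because these were the genes with lower signal in BTBR, and because 1 of the Polr3e probes has an unusual sequence. The first 30 of the 60 bases are given, as the array files list them, with a repeated unit in capitals.
Polr3e A_52_P231410: TCTGTGCTTCCAAAGCGTTCAGTACTaaat
Polr3e A_51_P202541: tgcttgaaatattttccaaaaattaccgag
Polr3f A_52_P123956: ttctagccttgtgttatacttcaaggctct
Polr3f A_52_P597714: cttgtacattccctagttgttgtgttgtat
Polr3f A_52_P381979: ataaagtttaattgggaagtctcttcttca
Polr3f A_51_P332580: ttaaaagtgatccataaagaagggagacat

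The capital letters mark a unit of 26 bases that A_52_P231410 holds in 2 copies, at bases 1 to 26 and again at bases 35 to 60. A repeat of at least that length occurred in 13 of 41174 probes (0.0316%), and the unit itself in 0 other probes. The other probes printed here had no internal repeat longer than 5 bases, which was also the median over all probes of the array. The scanner output places A_52_P231410 on chromosome 7 of mm9 from 128089814 to 128089873, and A_51_P202541 from 128088074 to 128088132. Exon and UTR positions were not assigned, since no annotation of that build was used here. The primers with which the study measured Polr3e by qRT-PCR are shown to mark a further stretch of sequence of the same gene.
Polr3e forward primer: gcgtctcagaccgaatgcta
Polr3e reverse primer: tgtctccagactcccagagg
The longest run of bases that either array probe shares with the forward primer is 5 bases, and with the reverse primer 6 bases. With qRT-PCR on pooled RNA, the paper reports a significant strain difference for Polr3e that matched its array result.

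Levels are normalized log2 intensities, in which 1 unit is a doubling, and differences are BTBR minus B6. Levels of different probes are not comparable, because each probe binds with its own efficiency. At the distal Polr3e probe A_52_P231410 the B6 mice gave log2 levels of 13.10, 13.20, 12.79 and 12.63 and the BTBR mice 8.03, 8.25, 8.38 and 8.19. The groups were 4.25 apart at their nearest, and the difference of -4.72, a 26.3-fold lower signal in BTBR, ranked 4 among the falls of all tested probes. The size of this fall varied with the processing, for which the cause was not tested. It was -4.46 with the normexp background correction, -6.29 with the scanner's own processed signal and -4.17 in the authors' deposited matrix.

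The other Polr3e probe, A_51_P202541, showed a much smaller fall in the same mice. Its log2 levels were 9.75, 9.96, 9.77 and 9.86 in B6 and 9.41, 9.37, 9.00 and 9.46 in BTBR, a difference of -0.52 or 1.44-fold. The strains did not overlap at this probe either, and the lowest B6 mouse was 0.28 above the highest BTBR mouse. The probes for 1 gene, which lie close together on chromosome 7, thus gave differences of 26.3-fold and 1.44-fold from the same 8 RNA samples. The cause of this gap between probes of the same gene was not tested. Whether the strains differ in sequence or copy number at the distal Polr3e probe was not tested either. Where a value reflects the RNA level, fewer cells of a type and less RNA per cell cannot be told apart in whole tissue.

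Polr3f, a subunit of the TFIIE-like trimer, was the single member with called probes among the 8 that were tested. A probe was called when limma's p-value, adjusted by Benjamini-Hochberg over all tested probes, was under 0.05, and 7.61% of all tested probes were called, 4.3% lower and 3.31% higher in BTBR. All 4 Polr3f probes read lower in BTBR and 3 of them fell. At A_52_P597714 the log2 levels were 8.94, 8.77, 8.86 and 8.96 in B6 and 8.35, 8.27, 8.24 and 8.42 in BTBR. The groups were 0.36 apart, and the difference of -0.57 had a limma adjusted p of 0.00103.

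A_52_P381979 fell as well, from 8.29, 8.33, 8.36 and 8.39 in B6 to 8.01, 7.92, 7.90 and 7.91 in BTBR, a log2 difference of -0.41 with a limma adjusted p of 0.00216. It is a dim probe, well above background on 4 B6 but only 2 of 4 BTBR arrays. It was therefore tested only through B6, the strain in which it is brighter, and with background passed on all arrays 2 Polr3f probes were tested and both were called. With the scanner's processed signal, the differences of A_52_P597714 and A_52_P381979 were -1.15 and -1.34, and in the deposited matrix they were -0.39 and -0.24, each called. A_51_P332580 gave 9.80, 9.83, 9.74 and 9.69 in B6 and 9.44, 9.41, 9.58 and 9.36 in BTBR, a difference of -0.32 with a limma adjusted p of 0.0223. This call was the least firm of the set: it was lost in 10 of 22 alternative settings, among them the omission of 6 of the 8 mice in turn, with adjusted p between 0.0108 and 0.0819 when 1 mouse was left out. The fourth probe, A_52_P123956, has the lowest coordinate of the 4 and differed by -0.14 (95% interval -0.29 to 0.02, limma adjusted p = 0.345), with overlapping groups. It too is dim, and was above background on 3 B6 and 2 BTBR arrays, so it was also tested only through B6.

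**Figure D1:**
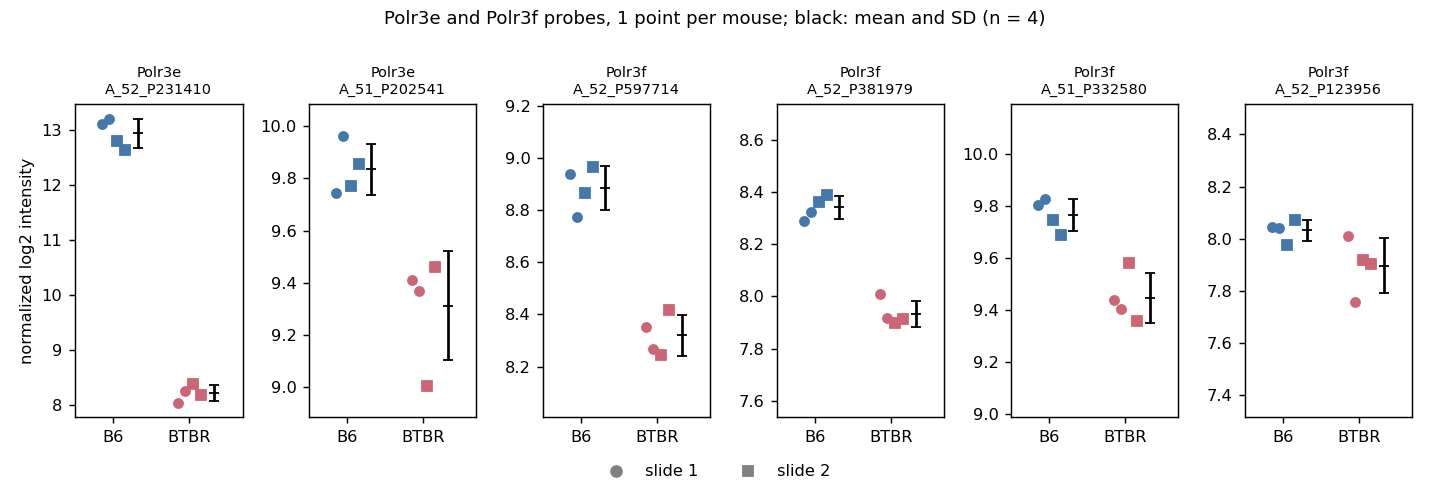
Normalized log2 intensity (vertical axes, each with its own range) of the 2 Polr3e and 4 Polr3f probes, with 1 point per mouse, circles for slide 1, squares for slide 2, and the mean with SD of 4 mice in black. The strains do not overlap at 5 of the 6 probes, and the distal Polr3e probe spans a far wider range than the rest.

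The 4 Polr3f probes lie on chromosome 2 of mm9 between 144355661 and 144366959. A_52_P123956 and A_52_P597714 are listed under separate Ensembl transcripts, and A_52_P381979 and A_51_P332580 under a RefSeq transcript. The strains did not overlap at the 3 called probes, nor did they at 14.2% of all tested probes, 7.27% with BTBR lower. By the rank product, the test the study itself used, none of the Polr3f probes passed a percentage of false prediction of 0.05, with values of 0.0735, 0.226, 0.424 and 1, against 3.95% of all tested probes called. Over the 17 tested probes of the members other than Polr3e, the rank product called 0 and limma 3. The calls of Polr3f thus depend on which of these tests is used, while its differences are the same in both.

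The catalytic subunits were at similar levels in both strains. Polr3a differed by -0.06 (95% interval -0.21 to 0.09) at A_52_P589699 and by -0.15 (-0.40 to 0.10) at A_51_P217731. Polr3b, with which it forms the active site, had a log2 level of 11.08 ± 0.10 (SD, n = 4) in B6 and 11.08 ± 0.05 in BTBR at A_51_P375533, a difference of 0.00 (95% interval -0.15 to 0.16). A further 2 Polr3a probes were above background on 0 of 8 arrays and 1 Polr3b probe on 1 of 8, so these 3 gave no tested value.

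Polr3d, the dimer partner of Polr3e, did not show a lower signal. Its single probe read 11.48, 11.46, 11.42 and 11.53 in B6 and 11.76, 11.54, 11.44 and 11.60 in BTBR. The difference was 0.11 (95% interval -0.06 to 0.29, limma adjusted p = 0.505), and the strains overlapped.

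The partners of Polr3f in the trimer did not pass the test. Polr3c differed by 0.02 at A_51_P165156 and by -0.13 at A_52_P309008 (95% intervals -0.16 to 0.21 and -0.37 to 0.11). For Polr3g the 3 probes differed by -0.16, 0.05 and -0.05. Polr3gl, the paralog of Polr3g, gave 12.04, 11.68, 11.72 and 11.79 in B6 and 11.50, 11.42, 12.15 and 11.94 in BTBR, a difference of -0.05 with the widest interval of the set, -0.43 to 0.32. Its BTBR mice split by slide, with the mice of slide 1 below all B6 mice and those of slide 2 above most of them.

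Polr3k, the cleavage and termination subunit, was measured by 3 probes that differed by 0.03, -0.12 and -0.15. None was called (limma adjusted p from 0.553 to 0.922). The groups overlapped at each probe, with the BTBR mouse 1 lowest at all 3.

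Over the 7 genes other than Polr3e and Polr3f, 0 of 13 tested probes were called, against 7.61% of all tested probes, and 0 separated the strains, against 14.2%, or 7.27% with BTBR lower. Their differences ran from -0.16 to 0.11 with a median of -0.05, against a median of 0.01 over all tested probes. Each of the 13 intervals included 0, and the bounds of all of them lay between -0.43 and 0.32, so that a fall as large as the -0.57 of Polr3f A_52_P597714 was outside each interval. Falls of the size of the other called Polr3f probes were not outside all of them: 2 of the 13 intervals, those of Polr3gl and Polr3k A_52_P240453, held -0.41, and 6 held -0.32. By unadjusted p under 0.05, limma passed 5183 of 27982 probes of the whole array. Over the 8 genes other than Polr3e, 3 of 17 tested probes were called (17.6%, against 7.61% of all tested probes and 4.3% called lower), all of 1 gene and 1 of them, A_52_P381979, tested only through B6. With background passed on all arrays, which leaves that probe out, 2 member probes were called, and 1678 probes over the whole array. Of the 17 probes 12 read lower and 5 higher, and the median was -0.12.

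**Figure D2:**
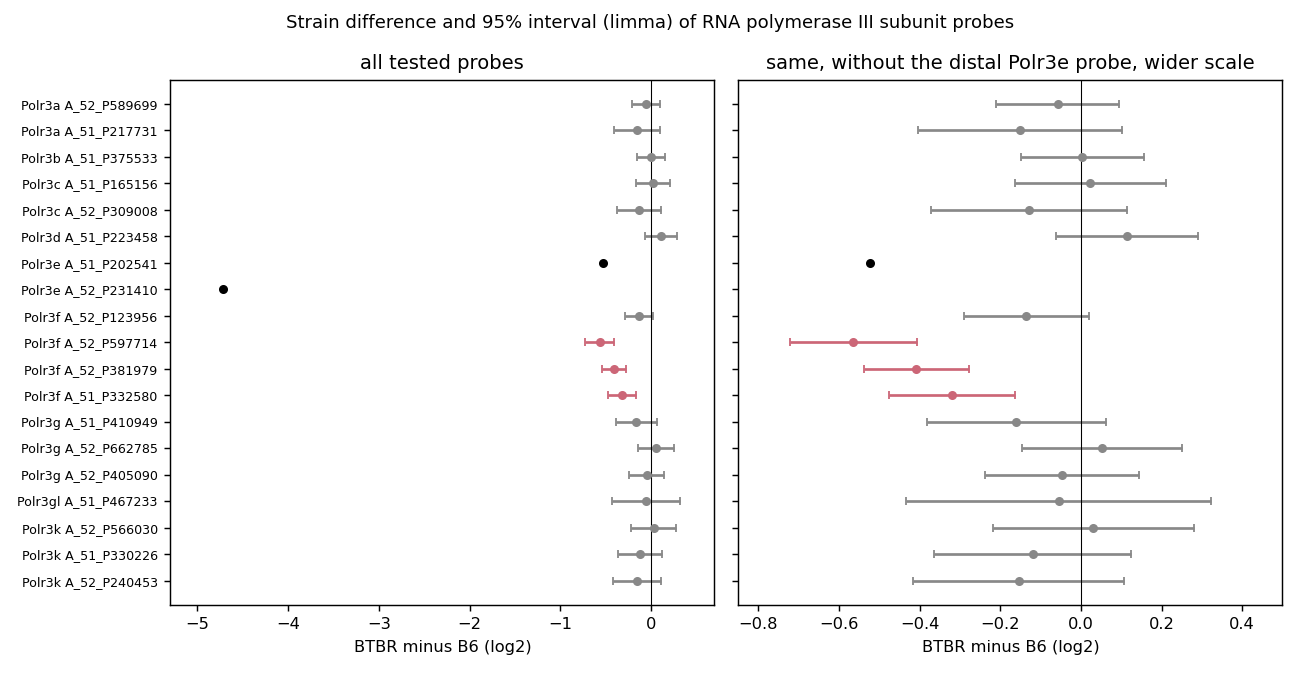
BTBR minus B6 (log2, horizontal axes) with its 95% interval from limma for the 19 tested probes of the 9 genes, all on the left and without the distal Polr3e probe on the right. Polr3e, in black, is shown without an interval, as a description. The 3 called Polr3f probes are in red, and the intervals of the other members, in grey, include 0.

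The arrays came from 2 slides, each with 2 mice of either strain, and the strain difference was read on each. On slide 1, 10 of the 13 uncalled probes of the 7 genes read lower in BTBR, with a median of -0.12, and on slide 2, 5 of 13 did, with a median of 0.02. Over all tested probes the medians were 0.02 and 0.00. For 9 of the 13 probes the sign differed between slides. The Polr3k probes gave -0.14, -0.33 and -0.33 on slide 1 and 0.20, 0.09 and 0.02 on slide 2, and Polr3gl gave -0.40 and 0.29. The falls of both genes described first were present on each slide: the distal Polr3e probe gave -5.01 and -4.43, the other Polr3e probe -0.46 and -0.58, and Polr3f A_52_P597714 -0.55 and -0.58. Limma's interaction of strain with slide was called for 0 of 27982 probes, with 2780 at an unadjusted p under 0.05, and its smallest adjusted p among the members was 0.433.

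**Figure D3:**
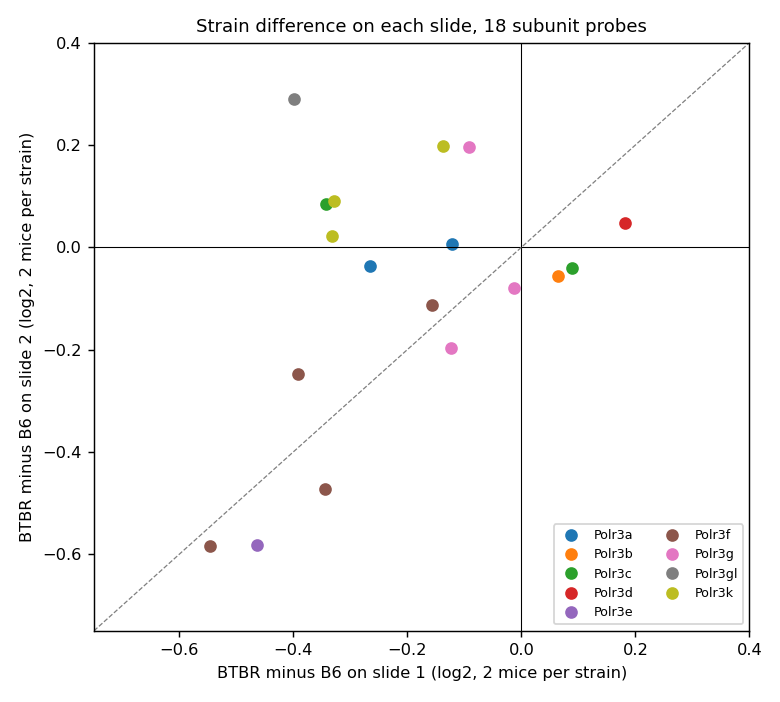
BTBR minus B6 (log2) on slide 1 (horizontal) and slide 2 (vertical) for the 18 tested subunit probes other than the distal Polr3e probe, each from 2 mice per strain and slide, with a dashed line where both would be equal. Polr3e and Polr3f are lower on both slides, and 9 of the 13 probes of the other genes change sign between them.

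A further list held subunits of the enzyme that are shared with RNA polymerase I or II, and Crcp, part of the stalk of RNA polymerase III. Crcp differed by -0.04 and was not called. Over the 8 genes of this list, 1 of 12 tested probes was called (8.33%, against 7.61% of all tested probes), and 3 separated the strains (25.0%, against 14.2%). That probe is A_51_P260513 of Polr1d, a subunit shared by RNA polymerases I and III, at 11.98, 11.95, 11.97 and 11.95 in B6 and 11.43, 11.63, 11.78 and 11.73 in BTBR (difference -0.32, limma adjusted p = 0.048). The other Polr1d probe differed by 0.19 in the opposite direction and was not called, and the call at A_51_P260513 was lost in 14 of 21 alternative settings, including the omission of single mice in 7 of 8 cases.

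Subunits specific to RNA polymerases I and II gave 0 called of 18 tested probes, against 7.61% of all tested probes, and 0 probes without overlap, against 14.2%. Cd3eap, an RNA polymerase I subunit, had the widest difference, 0.31 (limma adjusted p = 0.108). Among RNAs made by RNA polymerase III only Rmrp, the RNA of the mitochondrial RNA processing ribonuclease, had a probe in the list, with a log2 level of 10.89 ± 0.13 (SD, n = 4) in B6 and 10.84 ± 0.19 in BTBR, a difference of -0.06. The labeling kit primes on poly(A) tails, which this RNA normally lacks, and that limits the value.

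A list of 23 genes held factors that place and control RNA polymerase III. It also held Ssb and 3 genes of the 7SK particle, Larp7, Hexim1 and Mepce. Of its 38 tested probes 4 were called lower and 3 higher (18.4%, against 7.61% of all tested probes), and the median difference was -0.02. The strains did not overlap at 15 of the 38 (39.5%, against 14.2%). Called probes belonged to 5 genes, and 4 of these encode parts of SNAPc, the complex that binds promoters of the small nuclear RNA type such as those of U6 and 7SK. Within SNAPc 6 of 8 tested probes were called and 7 of 8 separated the strains, in both directions. TFIIIB, made up of Tbp, Brf1 or Brf2, and Bdp1, had 0 of 8 tested probes called, with differences from -0.19 to 0.05. Both Tbp probes separated the strains, at -0.16 and -0.19, without a call (limma adjusted p of 0.219 at A_51_P461828, the smaller difference). TFIIIA and TFIIIC, which recognize promoters inside the genes for 5S and transfer RNA, had 0 of 10 called, with differences from -0.12 to 0.20. Maf1, the repressor of the enzyme, differed by 0.03.

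Snapc1 fell at both of its probes. A_51_P282268 lay between 10.68 and 10.78 in the 4 B6 mice and between 9.99 and 10.09 in the 4 BTBR mice, a difference of -0.67 with a limma adjusted p of 9.76e-05, and A_52_P686405 differed by -0.69 (limma adjusted p = 0.000231). Snapc4, the largest SNAPc subunit, read 14.45, 14.19, 14.16 and 14.22 in B6 and 13.87, 13.67, 13.88 and 13.84 in BTBR, a difference of -0.44. Snapc5 rose by 0.26 on the log2 scale, and Snapc2 differed by 0.05 with overlapping groups.

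The probes for Snapc3 went opposite ways. A_52_P217646, listed under a RefSeq transcript, read 11.90, 11.77, 11.83 and 11.95 in B6 and 12.52, 12.49, 12.83 and 12.65 in BTBR, a rise of 0.76 (limma adjusted p = 0.000654). A_51_P463270, listed under an Ensembl transcript, differed by -0.60 (limma adjusted p = 0.00911), and the remaining probe by -0.18 without a call. No direction was therefore given to the gene. Rank product called 4 of the 38 probes, against 3.95% of all tested probes. They were those of Snapc1, the risen probe of Snapc3 and 1 of Ssb, which was above background on 0 B6 arrays.

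Outside SNAPc, 1 of 3 probes of Pou2f1, the octamer-binding factor Oct-1, rose by 0.46 (limma adjusted p = 0.0151). The widest difference of the list was at a probe of Ssb, which encodes the La protein that binds the ends of new RNA polymerase III transcripts. It read 7.50, 7.60, 7.59 and 7.74 in B6, not well above background, and 7.94, 7.90, 11.63 and 7.90 in BTBR, so that the difference of 1.23 (limma adjusted p = 0.459) rested on BTBR mouse 3. Against the lowest signal well above background it was at least 2.04-fold higher in BTBR, and at least 1.07-fold without that mouse.

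**Figure D4:**
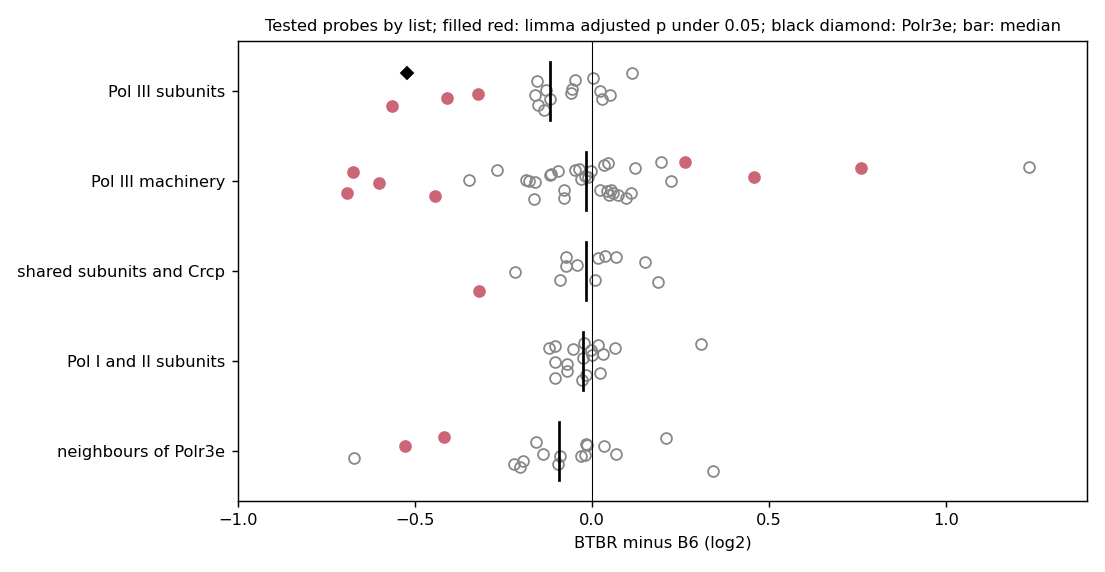
BTBR minus B6 (log2, horizontal axis) of each tested probe in 5 lists, spread vertically for legibility, with called probes filled in red, Polr3e as a black diamond and the median of each list without Polr3e as a bar. The distal Polr3e probe, at -4.72, lies outside the axis; called probes of the machinery list lie on both sides of 0 and the RNA polymerase I and II subunits have none.

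Genes around Polr3e on chromosome 7 were compared as well, by position. Within 500 kb of the Polr3e probes the array has 22 probes for other names, of which 18 were tested and 2 were called, both lower (11.1%, against 7.61% of all tested probes called and 4.3% called lower). The strains did not overlap at 7 of the 18 probes (38.9%, against 14.2%), among them the called ones and 1 probe each of Eef2k, Vwa3a, Pdzd9, Uqcrc2 and 4933427G17Rik. The called probes were A_52_P180152 of 9030407P20Rik at -0.53 (limma adjusted p = 0.0143), a dim probe above background on 3 B6 arrays and 1 BTBR array and so tested only through B6, and A_52_P655948 of BC030336 at -0.42 (limma adjusted p = 0.0498), on the side away from Cdr2. Nearer to Polr3e, Cdr2 at 11.3 kb differed by -0.10 and was not called. Its difference was 0.50 on slide 1 and -0.69 on slide 2, with BTBR levels of 10.59, 10.53, 9.24 and 9.08. The 3 probes of Eef2k, a kinase of elongation factor 2, differed by -0.01, -0.19 and -0.14, also without a call. The widest difference, -0.67 at A_51_P258848 of 4933427G17Rik, was not called (limma adjusted p = 0.118), with BTBR levels of 8.85, 8.88, 9.65 and 9.76. The count of 2 fell to 0 or 1 in 13 of 21 alternative settings, and it was 0 with background passed on all arrays.

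**Figure D5:**
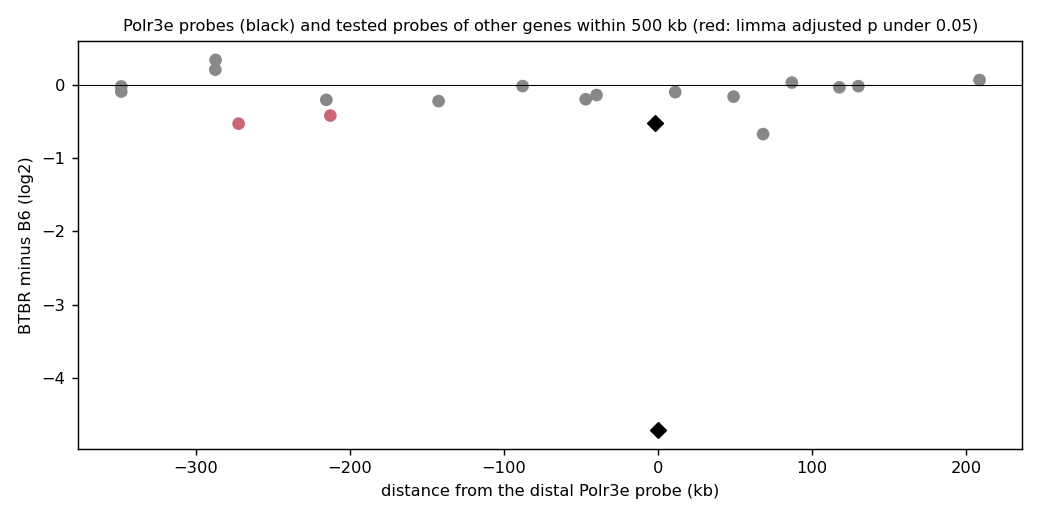
BTBR minus B6 (log2, vertical axis) against distance from the distal Polr3e probe (kb, horizontal axis) for both Polr3e probes (black) and 18 tested probes of other genes, with called probes in red. The distal Polr3e probe at -4.72 lies far below the rest, which run from -0.67 to 0.34.

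The probes whose profile over the 8 arrays was closest to that of the distal Polr3e probe were those of Slc15a2, a peptide transporter (Pearson r = 0.999), and of 2610044O15Rik8, AK077492, NAP027424-1 and Zfp672 (r = 0.998 or higher, rounded). Their differences were -2.78, -1.13, -1.65, -1.94 and -1.25. These correlations describe 8 arrays that share the split between strains, and they carry no test.

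Between 56.8% and 71.9% of probes were well above background per array, and precision is set by having only 8 arrays. The label of hippocampus was checked against its markers, and 10 of 10 hippocampal genes were above background on all arrays, with 0 called, and their summed levels ranged from 117768 to 172347 in B6 and from 79973 to 177129 in BTBR. Summed levels of thalamic markers ranged from 12053 to 16330 in B6 and from 13666 to 97073 in BTBR, and those of striatal markers from 6474 to 33204 and from 5999 to 107079, in linear intensity units. Of the choroid plexus markers, 6 of 6 were above background on all arrays, with sums of 16461 to 46577 in B6 and 18813 to 78262 in BTBR, and pituitary markers were at 2405 to 18308 and 6243 to 25767. None of these lists had a called gene, and the part of dissected neighboring tissue in the differences above was not tested.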

How the data were processed

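Each array was read by the authors with Agilent Feature Extraction, given as 10.7.3.1 in the file headers and as 9.1 in the submitters' processing notes, and its intensity columns were deposited without scaling between arrays. The authors also deposited a matrix of log2 values, background subtracted and quantile normalized with an offset not given in the sources used here, which served as an alternative. Following the study's methods, median local background was taken off the mean spot intensity. Results below 0.5 were raised to 0.5, 50 was added as offset, and the logarithms were then quantile normalized over arrays. The median stood for replicate spots, and 154 probes with outlier flags were dropped. Saturated spots numbered 0. Strain was fitted with limma 3.58.1 in R 4.3.3 with data.table version 1.17.8, and p-values were adjusted by Benjamini-Hochberg over 27982 probes. The study used the rank product, run here with 100 permutations. The limma fit was also run on simulated data, and the outcome is not reported here. Plots used Python 3.11.15, pandas 2.3.3 and matplotlib 3.10.9. Replicates were separate mice.

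The members and lists were chosen with earlier results of these data known. All 9 genes were named with every probe. From each other list, every gene called, at most the 5 with the smallest p, and the gene with the widest difference were named, and further genes by role after their values were seen. As alternatives, the scanner's processed signal scaled to its 75th percentile, normexp, median centring, the deposited matrix, other filters, limma's trend and robust options, the rank product, blocks, single slides, gene medians and the omission of each mouse were run. All 9 gene symbols matched RefSeq (GRCm38.p6), which was used for names only, while probe coordinates are those of mm9 in the array files. Primer sequences are those the study lists. An item of the list of further subunits is not reported here.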

Additional observations from a re-analysis of the deposited data

Results flagged for a closer look

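In groups of 4 mice, a mouse was singled out when its gap to the nearest of the others took up nearly the whole range of the group (Dixon's test, 95% level). Chance flags about 5% of groups, and 44 groups (22 probes in 2 strains) were examined, of which 2 were singled out. At Polr3g A_51_P410949, BTBR mouse 2 read 10.34, while the other BTBR mice lay between 10.02 and 10.07. At Polr3a A_52_P746605, a probe not above background on any array, BTBR mouse 4 read 7.34, while the other BTBR mice lay between 7.46 and 7.49. Neither probe was called, and the cause was not tested.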

How the results depend on the processing

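Counts here are of called probes. The member count of 3 without Polr3e was 0 by rank product and 2 to 3 when 1 mouse was left out. The machinery count of 7 was 4 by rank product and within slide 2, and 5 to 6 without 1 mouse. The shared subunits' count of 1 was 0 with the processed signal, without the filter on dim probes, with background passed on all arrays, with limma's trend and robust options, by rank product, with the replicate block and within slide 2, and 0 to 1 without 1 mouse. The 2 called neighbours of Polr3e were 1 without the filter, with outlier flags kept, with trend and robust options and with the replicate block, 0 with background passed on all arrays, by rank product and within slide 2, and 0 to 2 without 1 mouse. Over all probes 1106 were called by rank product, 1036 within slide 2 and 2422 within slide 1, against 2129 over both slides. Of the 17 tested member probes without Polr3e, 13 had no overlap within slide 1 and 10 within slide 2, where 2 arrays per strain separate easily. The share over all tested probes within a slide was not computed, so these counts have no comparison. The interaction of strain and slide was called for 0 to 46 probes without 1 mouse.

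Signs turned only for uncalled probes with small differences. Within slide 2 they were Polr3a A_52_P589699 (0.0057), Polr3b A_51_P375533 (-0.056), Polr3c A_51_P165156 (-0.041) and A_52_P309008 (0.084), Polr3gl (0.29) and Polr3k A_51_P330226 (0.091) and A_52_P240453 (0.023). Within slide 1 they were Polr3g A_52_P662785 (-0.092) and Polr3k A_52_P566030 (-0.14). With median centring Polr3b A_51_P375533 (-0.026), Polr3c A_51_P165156 (-0.036) and Polr3k A_52_P566030 (-0.0048) turned, and with the gene median Polr3c A_51_P165156 (-0.053), Polr3g A_52_P662785 (-0.047) and Polr3k A_51_P330226 and A_52_P240453 (0.030 each). Without 1 mouse the ranges were -0.034 to 0.045 for Polr3b, -0.012 to 0.084 for Polr3c A_51_P165156, -0.024 to 0.091 for Polr3g A_52_P662785, -0.11 to 0.0036 for Polr3g A_52_P405090, -0.19 to 0.055 for Polr3gl and -0.049 to 0.11 for Polr3k A_52_P566030. The cause was not tested. The distal Polr3e probe stayed between -4.81 and -4.61 without 1 mouse, and the gene median of Polr3e was -2.62.

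Replicate numbers are shared by the strains, but same-numbered mice correlated at -0.14, 0.51, -0.10 and 0.39 in their deviations, so the numbers were not used as pairs. With the replicate block 2 member probes and 1650 probes in all were called, and A_51_P332580 of Polr3f was not (limma adjusted p = 0.0644). Calls per list could not be given for gene medians, where genes were counted instead. Background limits the dim Polr3f probes A_52_P381979 and A_52_P123956, which were not tested when background had to be passed on all arrays. With the scanner's processed signal the 4 Polr3f probes differed by -1.15 (A_52_P597714), -1.34 (A_52_P381979), -0.40 (A_51_P332580) and -0.44 (A_52_P123956, not called), and in the deposited matrix by -0.39, -0.24, -0.27 and -0.07.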

Other observations

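Genes around Polr3f on chromosome 2 were examined after its values were seen. Within 500 kb, 15 probes of other genes were tested, 2 were called lower and 1 higher (20% of those tested, against 7.61% of all tested probes). Sec23b, a coat protein of vesicles that leave the endoplasmic reticulum, differed by -0.37 at 1 probe and by 0.16 at the other, which was not called. Snx5, a sorting nexin, differed by -0.30 at A_52_P166833 (called), by -0.24 at A_52_P325574 (not called, groups without overlap) and by 0.41 at A_51_P134844 (called), so that both called genes of the region had probes of opposite sign. Rbbp9, the nearest gene with tested probes on the far side, differed by -0.27 and 0.17 without a call. Dzank1 on the near side differed by -0.04 and 0.17, also without a call.

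Probes with an internal repeat of at least 20 bases, a length chosen after the Polr3e sequence was seen, numbered 39 of 41174 (0.0947%). Leaving Polr3e out, 33 were tested and 3 were called (9.09%, against 7.61% of all tested probes), 2 of them lower. These were probes of AK046342 at -0.75, D430006K04 at -0.54 and CB205479, which rose by 2.48 on the log2 scale. Their repeats, of 25, 21 and 22 bases, were shorter than that of the Polr3e probe. With a repeat of 26 bases or more 11 probes were tested, and none but that of Polr3e was called, against 7.61% of all tested probes. The part of the repeat in the Polr3e value was not tested.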
